A study of Mus musculus with 2 samples.

Results

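The genes described here encode factors that assemble the small (40S) subunit of the ribosome: Nom1, Nop14, Nol6, Ltv1, Bms1, Heatr1, Utp20 and Utp3. They were chosen by gene name, and every listed region of each was taken, which gave 10 regions of 8 genes among the 1381 regions of 1296 genes in the table. Nom1 and Heatr1 have 2 regions each and the others 1 each. ChIP-seq (chromatin immunoprecipitation and sequencing, here with the Abcam ab9898 antibody) was used to measure H3K9me3, which marks silenced chromatin. The cells were LSK cells sorted from bone marrow, which carry Sca-1 and c-Kit but no lineage markers and include the stem cells and early progenitors of the blood. The C57BL6 mice were WT controls (1 library) or conditional Kdm4a, b and c triple knockouts (1 library), and tamoxifen had been given to animals of both genotypes 2 weeks before the sort. The sources used here do not name the Cre driver or the age and number of the animals behind a library.

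Ribosome assembly starts in the nucleolus, where RNA polymerase I makes a long precursor RNA. A large particle, the small-subunit processome, forms on this precursor around the U3 small nucleolar RNA, folds it and cuts out the RNA of the small subunit. Later factors accompany the pre-40S particle to the cytoplasm, where its maturation ends. Stem cells of the blood are known to be sensitive to faults in making ribosomes. Kdm4a, Kdm4b and Kdm4c encode demethylases that remove methyl groups from H3K9me3, and H3K4me3, which defines the regions, marks active start sites.

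The libraries held 24673463 control and 26061344 knockout reads behind the scaling. All values are reads scaled to library size (RPM), and 1 read is worth 0.0405 RPM in the control and 0.0384 RPM in the knockout. The lowest knockout to control ratio in the whole table was 2.01, and every region had at least 1 control read, so the table holds a selection of regions with higher values in the knockout. That the 8 genes are higher in the knockout is therefore a property of the table. The 3 deleted genes had no listed region, so the deletion cannot be checked here. Of the markers of the sort, Ly6a (Sca-1) had a listed region and Kit had none, and a gene without one has no level here.

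The regions differed in where they lay, as the map of regions around the start sites shows. Positions are on mm10. The region of Nol6 (chromosome 4, 41123617 to 41125110), the wide region of Utp20 (chromosome 10, 88825744 to 88827585), 1 of the regions of Heatr1 (chromosome 13, 12394988 to 12395883) and 1 of the regions of Nom1 (chromosome 5, 29434220 to 29434737) span the listed start site. Those of Nop14 (chromosome 5, 34659079 to 34660116) and Ltv1 (chromosome 10, 13192357 to 13192808) and the second regions of Heatr1 (12396046 to 12396511) and Nom1 (29435268 to 29436024) lie wholly within the gene. Those of Bms1 (chromosome 6, 118419510 to 118420193) and Utp3 (chromosome 5, 88553118 to 88554207) lie upstream. At Bms1 the listed start site is 385 bases inside the outer 5′ end of the RefSeq gene, at 118419802, and that end falls within the region. Exons, introns and UTRs are not part of the annotation used.

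**Figure D1:**
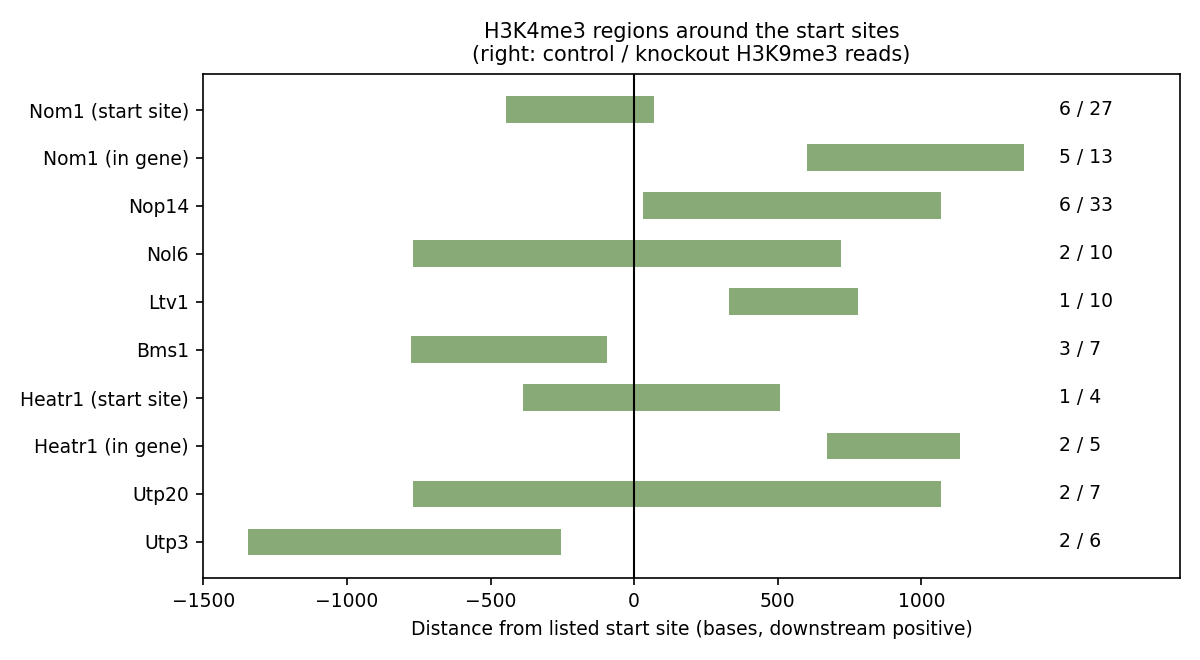
Extent of the 10 H3K4me3 regions (bars) relative to the listed start site (vertical line, bases, downstream positive), with the control and knockout H3K9me3 reads at the right. The regions of Nol6 and Utp20 and 1 region each of Nom1 and Heatr1 cross the start site, and that of Nop14, with 33 knockout reads, begins 32 bases downstream of it.

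RefSeq promoter sequences (GRCm38.p6) were matched for 7 of the 8 genes, all but Nol6. In Nom1, Utp20 and Heatr1 the 250 bases before the start site lie wholly inside the listed region, so these stretches are shown as start-site DNA within the H3K4me3 regions; the window in which H3K9me3 reads were counted is not known. Capitals mark matches, on either strand, to GGGCGG (the GC box) and CCGGAA (the core of sites for ETS factors). The stretches are chr5:29434417-29434666 on the plus strand for Nom1, chr10:88826815-88827064 on the minus strand for Utp20 and chr13:12395125-12395374 on the plus strand for Heatr1.
Nom1: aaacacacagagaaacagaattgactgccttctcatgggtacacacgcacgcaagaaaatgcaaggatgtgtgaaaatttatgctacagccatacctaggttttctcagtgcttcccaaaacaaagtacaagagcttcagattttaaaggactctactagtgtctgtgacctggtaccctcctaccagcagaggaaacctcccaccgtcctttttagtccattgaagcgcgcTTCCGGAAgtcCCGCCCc
Utp20: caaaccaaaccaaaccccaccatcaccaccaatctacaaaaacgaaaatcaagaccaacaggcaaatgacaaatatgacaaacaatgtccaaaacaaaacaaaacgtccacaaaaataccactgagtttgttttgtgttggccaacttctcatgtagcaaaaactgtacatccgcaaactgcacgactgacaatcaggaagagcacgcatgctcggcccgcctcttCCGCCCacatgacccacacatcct
Heatr1: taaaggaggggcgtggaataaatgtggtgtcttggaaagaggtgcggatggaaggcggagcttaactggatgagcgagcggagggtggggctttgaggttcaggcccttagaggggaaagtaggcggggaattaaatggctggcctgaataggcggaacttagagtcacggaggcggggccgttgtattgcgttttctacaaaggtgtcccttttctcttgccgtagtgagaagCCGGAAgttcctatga

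In Nom1 the CCGGAA matches on both strands overlap to form TTCCGGAA directly before the GC box and the start site. Over windows of 300 bases (250 before to 50 after the start), CCGGAA occurred in 5 of the 7 promoters (Nom1, Utp3, Bms1, Ltv1 and Heatr1), against 38.1% of 1171 promoters of listed genes and 14.9% of all 32851. GGGCGG occurred in 4 (Nom1, Nop14, Ltv1 and Utp20), against 63.8% and 35.7%. CACGTG, the E-box bound by Myc, occurred in Ltv1 and Utp20, against 11.1% and 7.15%. The palindromic NRF1 motif, AAGATGG (a core of YY1 sites) and the palindromic BANP motif had no match in the 7 windows, and were found in 2.31%, 8.20% and 0.769% of promoters of listed genes. The 7 promoters had a median GC content of 56.3% and a median of 17 CpG dinucleotides, against 60.0% and 21 for listed genes and 52.7% and 7 for all. A motif match is a description of the letters and not evidence of binding.

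Nop14 and Nom1 held most of the H3K9me3 reads of the group. Both proteins belong to the part of the processome that is known from yeast as the Nop14 module, and loss of either counterpart there blocks the making of small-subunit RNA. At Nop14, H3K9me3 was 0.243 RPM (6 reads) in the control and 1.27 RPM (33 reads) in the knockout, a ratio of 5.21 with a 95% counting interval of 2.15 to 15.2. At the Nom1 region over the start site it was 0.243 RPM (6 reads) and 1.04 RPM (27 reads), a ratio of 4.26 (1.72 to 12.6). Among the regions of the group, in these alone the Poisson intervals of the 2 libraries did not overlap: 0.872 to 1.78 RPM in the knockout at Nop14 and 0.683 to 1.51 at Nom1, against 0.0892 to 0.529 in the control at both. The share of all listed regions with such separate intervals is not given here. Every listed region was selected with a ratio above 2. Whether the separation sets Nop14 and Nom1 apart from the table was not tested, and it is not read as a trait of these genes. Of the 29 regions in the table with 6 control reads, 3 had as many knockout reads as Nop14 or more, and 4 as many as Nom1 or more, each count including the gene itself. The intervals cover counting error only. Each group is a single library, so a difference cannot be set against the spread between animals, and no test between the groups was made.

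The second Nom1 region, inside the gene, had 0.203 RPM (5 reads) in the control and 0.499 RPM (13 reads) in the knockout, a ratio of 2.46 (0.82 to 8.82). Its interval includes 1 and overlaps that of the region over the start site, so the intervals do not separate the ratios of the Nom1 regions. H3K4me3 height was 19.8 RPKM inside the gene and 9.44 RPKM over the start site (the authors' values, scaled to width and depth). Over both regions the reads of Nom1 summed to 11 and 40, which gives a ratio of 3.44 (1.73 to 7.44). Nom1 had been singled out by the study on these samples, so its place in the table is not independent evidence.

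Nol6 and Ltv1 each had 10 knockout reads (0.384 RPM) with few control reads. Nol6 is the counterpart of yeast Utp22, a subunit of the UtpC module. It had 2 control reads (0.0811 RPM) and a ratio of 4.73 (1.01 to 44.4), and 44 of the 315 regions with 2 control reads had as many knockout reads or more. Ltv1 stays on the pre-40S particle until late in its maturation. It had 1 control read (0.0405 RPM) and a ratio of 9.47 (1.35 to 411), the highest of the 8 genes, and 37 of the 640 regions with 1 control read had as many knockout reads or more. The lower limit of Nol6 lay just above 1, and the Poisson intervals of the 2 libraries overlapped in both genes. Nol6 had the third highest H3K4me3 of all 1381 regions, 43.1 RPKM.

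The remaining 4 genes had few reads in both libraries, and their intervals include 1. Utp20, a large scaffold protein, had 2 control reads (0.0811 RPM) and 7 knockout reads (0.269 RPM), a ratio of 3.31 (0.63 to 32.7), and 139 of the 315 regions with 2 control reads had as many knockout reads or more. Utp3, the counterpart of yeast Sas10, had 2 reads (0.0811 RPM) and 6 reads (0.230 RPM), a ratio of 2.84 (0.51 to 28.8), and 204 of the same 315 regions reached its knockout count. Bms1, a GTPase of the processome, had 3 reads (0.122 RPM) and 7 reads (0.269 RPM), a ratio of 2.21 (0.50 to 13.2). For Bms1, 7 knockout reads is the lowest number that gives a ratio above 2 with 3 control reads, so all 174 regions with 3 control reads had as many or more.

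Heatr1, the counterpart of yeast Utp10 in the UtpA module that binds the precursor first, had 2 listed regions with few reads. Its region over the start site had 1 control read (0.0405 RPM) and 4 knockout reads (0.153 RPM), a ratio of 3.79 (0.37 to 186), and 391 of the 640 regions with 1 control read had as many knockout reads or more. The region inside the gene had 2 reads (0.0811 RPM) and 5 reads (0.192 RPM), a ratio of 2.37 (0.39 to 24.9), the lowest that the table admits with 2 control reads. Together they had 3 and 9 reads, a ratio of 2.84 (0.71 to 16.3). H3K4me3 was 24.7 RPKM over the start site and 7.41 RPKM inside the gene.

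**Figure D2:**
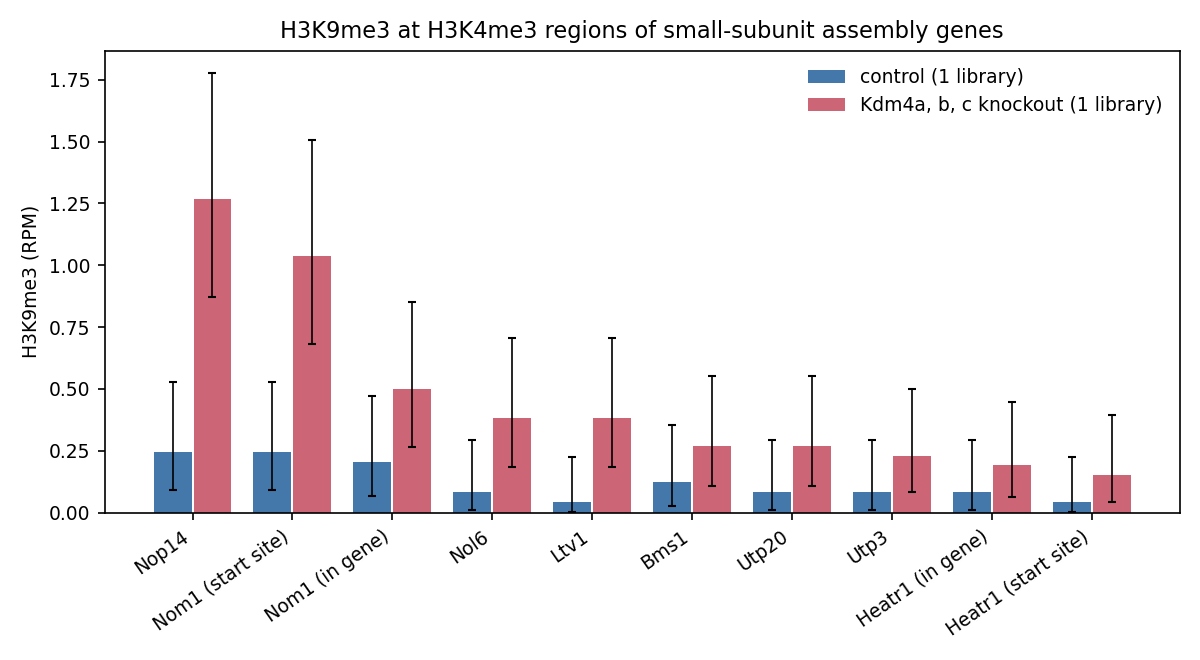
H3K9me3 in RPM at the 10 regions in the control and knockout library (bars, 1 library each), with exact 95% Poisson intervals as error bars that cover counting error only. Nop14 (1.27 RPM) and the start-site region of Nom1 (1.04 RPM) stand highest in the knockout, and the control bars lie between 0.0405 and 0.243 RPM.

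In the control library all 10 Poisson intervals overlapped each other, so the genes had no order there beyond counting error. In the knockout library the interval of Nop14 overlapped only that of the Nom1 region over the start site. The latter also overlapped those of the second Nom1 region, Nol6 and Ltv1, but not those of Bms1, Utp20, Utp3 or Heatr1. These levels are per region and not per length, because the sources used here do not state the window in which reads were counted. Reads did not rise with region width over the table: from the narrowest of 4 width classes (348 regions, median 390 bp) to the widest (343 regions, median 1204 bp), the mean fell from 2.66 to 2.25 control reads and from 9.12 to 8.29 knockout reads. If the window is wider than a region, the paired regions of Nom1 and of Heatr1 could share reads.

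Over all 10 regions, 30 control reads (1.22 RPM) stood against 122 knockout reads (4.68 RPM), a joint ratio of 3.85 (2.56 to 5.95). With only the region nearest each start site the reads were 23 and 104, a ratio of 4.28 (2.71 to 7.05). The other 1371 regions of the table had a joint ratio of 3.43 (3.30 to 3.56), which lies within both intervals, so a difference of the 8 genes from the rest was not detectable at this depth. Nop14 and Nom1 held 73 of the 122 knockout reads and 17 of the 30 control reads. Without them the joint ratio was 3.57 (1.91 to 7.17).

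After adding 0.0405 RPM to both libraries, 8 of the 10 regions were at least 2-fold higher in the knockout, where 66.3% of all regions in the table were. Bms1 and the inner Heatr1 region were not, at log2 ratios of 0.93 for both. At a fold of 3 or more there were 4 of 10 (Ltv1, Nop14, Nom1 at the start site and Nol6), against 24.7%, and the same 4 regions had a counting interval above 1, against 21.1%. These shares are not matched on reads, which decide how narrow an interval is: the 10 regions had a median of 8.5 knockout reads and the table a median of 6. The median log2 ratio over the 8 genes, by the region nearest the start site, was 1.57, against 1.26 over all 1296 genes. The lowest number of knockout reads admitted for a region's control reads was found in 2 of the 10 regions and in 33.7% of the table.

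**Figure D3:**
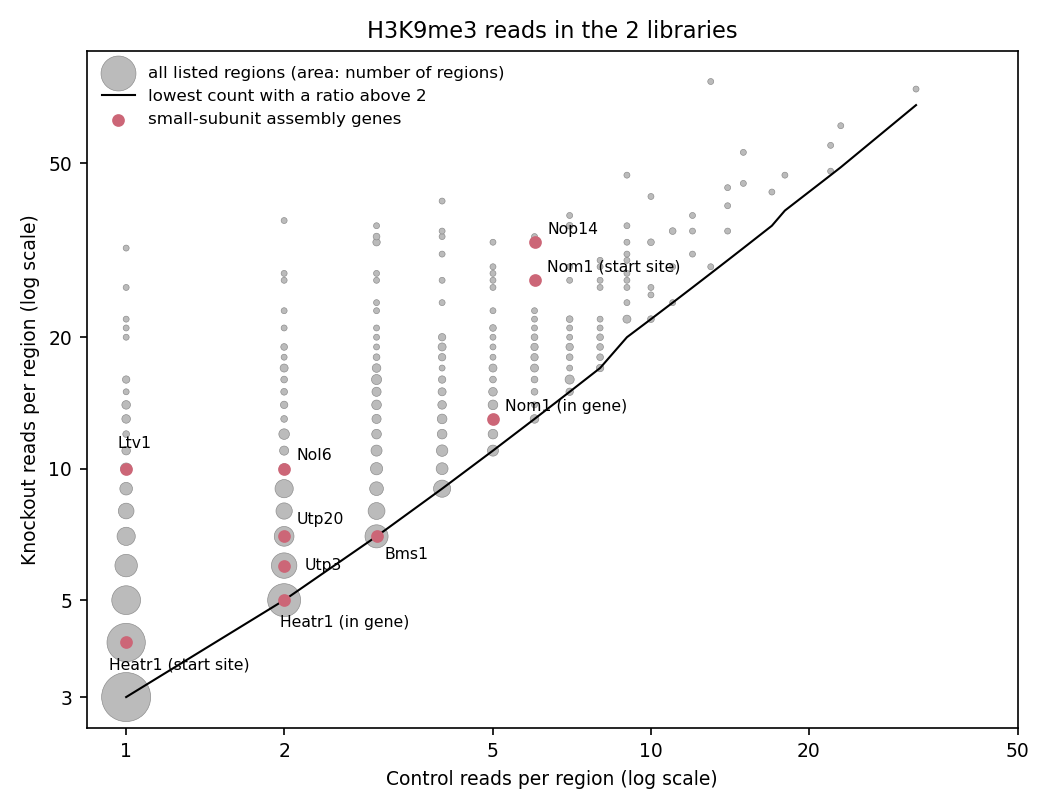
Control reads against knockout reads per region (both axes logarithmic) for all 1381 regions (grey, area by number of regions) and the 10 regions of the 8 genes (red). The line joins the lowest knockout counts that give a ratio above 2; Bms1 and the inner Heatr1 region sit on it, and Nop14 (6 and 33 reads) and the start-site region of Nom1 (6 and 27 reads) stand well above it.

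Of 64 genes in 9 lists of small-subunit assembly factors, 18 had a listed region (28.1%), the 8 genes included. Without them it was 10 of 56 (17.9%). For comparison, 5.45% of 21896 RefSeq protein-coding genes had one, a share that includes genes with no H3K4me3 region, which could not be listed. The 8 genes all have a listed region, and they and the lists were chosen with earlier results of these data known. These shares are therefore no test of enrichment. Together the 10 other genes held 18 reads in the control and 78 in the knockout. Their joint ratio was 4.10 (2.43 to 7.28), whose interval overlaps that of the 8 genes. Of them, 9 were at least 2-fold higher after the pseudocount (66.3% in the table) and 2 had a counting interval above 1 (21.1% in the table).

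The 2 genes with an interval above 1 were Dhx37 and Utp23, a number near the table's share and so no result about the pathway. Dhx37, a helicase that acts on U3 in the processome, had 1 control read (0.0405 RPM) and 14 knockout reads (0.537 RPM), a ratio of 13.3 (2.02 to 560), higher than that of any of the 8 genes but with an interval that overlaps all of theirs. Utp23, a processome protein known from yeast, had 3 reads (0.122 RPM) and 16 reads (0.614 RPM), a ratio of 5.05 (1.45 to 27.0). The other processome genes with a region had intervals that include 1. Utp6 of the UtpB module had 1 and 7 reads (6.63, 0.85 to 299), Snu13, which binds the U3 RNA, had 3 and 9 (2.84, 0.71 to 16.3), Ngdn had 2 and 6 (2.84, 0.51 to 28.8) and Utp11 had 3 and 7 (2.21, 0.50 to 13.2).

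The late 40S list had a listed region for 5 of 11 genes (45.5%, again no test of enrichment), with the chosen gene Ltv1 among them. The other 4 were the kinase gene Riok1 with 1 and 5 reads (4.73, 0.53 to 224), the methyltransferase gene Dimt1 and the assembly factor gene Pno1 with 1 and 4 each (3.79, 0.37 to 186), and Tsr3, a modifier of small-subunit RNA, with 2 and 6 (2.84, 0.51 to 28.8). The interval of Ltv1 lay above 1, which makes 1 of 5 late factors against 21.1% of the table, and it overlaps the intervals of the other 4. The UtpA module had 1 of 6 genes listed (Heatr1), UtpB 1 of 6 (Utp6), UtpC 1 of 2 (Nol6), the Mpp10 module 1 of 4 (Utp3), the pair of Bms1 and Rcl1 1 of 2 (Bms1), the Nop14 module 2 of 6 (Nom1 and Nop14), the U3 particle 1 of 5 (Snu13) and the other processome factors 5 of 22. Absence from the table gives no level, since it can follow from a lack of a region or of control reads or from a ratio at or below 2.

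**Figure D4:**
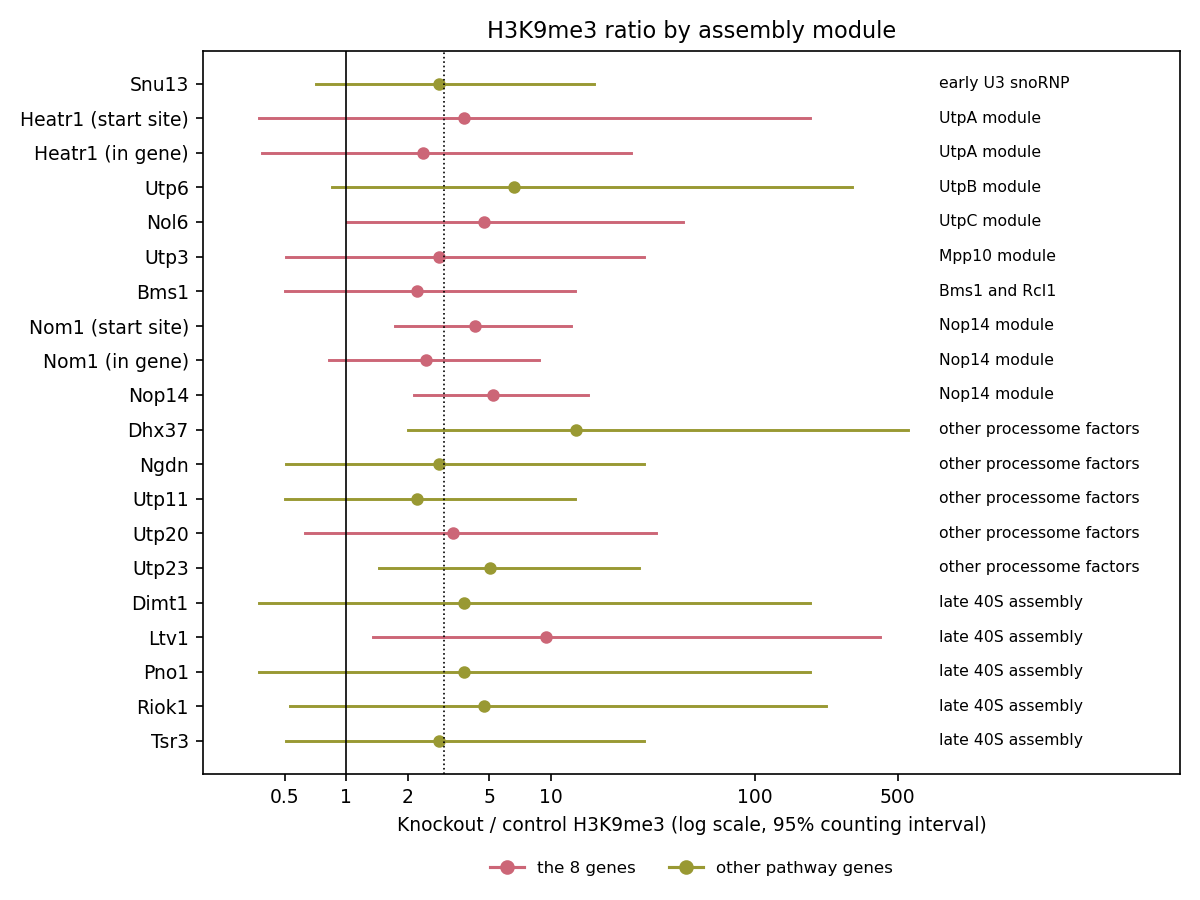
Knockout to control H3K9me3 ratio (dots, log axis) with exact 95% counting intervals (lines) for the 20 listed regions of 18 small-subunit assembly genes, ordered by module; the solid line is at 1 and the dotted line at the median ratio of the table, 2.998. The intervals of Nol6, Nop14, Ltv1, Dhx37, Utp23 and the start-site region of Nom1 lie above 1.

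The surroundings of the 8 genes were also read from the table. Within 100000 bases of their regions, 4 regions of other genes were listed: Mfsd10 at 22558 bases from the Nop14 region, Zfp9 at 59462 from Bms1, Lgals8 at 65029 from the nearer Heatr1 region and Gm4925 at 94760 from Utp20. They had 1 and 3 reads at Mfsd10 and Lgals8 (ratio 2.84, 0.23 to 149), 3 and 9 at Zfp9 (2.84, 0.71 to 16.3) and 1 and 4 at Gm4925 (3.79, 0.37 to 186). All 4 intervals include 1. Of other genes in the RefSeq promoter table, Grk4 alone, which encodes a receptor kinase, starts within 1000 bases of 1 of the 8 genes on the other strand. It starts 231 bases upstream of Nop14, outside the Nop14 region.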

How the data were processed

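Trimmomatic and Bowtie2 were used with build mm10, per the submitters' processing notes; the region caller, the counting window and the treatment of duplicates are not stated there. H3K9me3 was deposited by the authors as values read here as RPM, with the ratio of knockout to control, per the file headers. The authors gave the height of each region in RPKM of H3K4me3, from a library not analysed here. All RPM values (100.0%, tolerance 0.01 reads) were whole multiples of 1 step per library, which gave the reads and totals. Deposited positions are half-open and are given 1-based.

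Regions were taken by gene name, and pathway genes by RefSeq symbol (64 of 64 matched). Ratios have exact (Clopper-Pearson) 95% intervals from the binomial distribution of knockout reads, scaled by the totals, and levels have exact Poisson intervals. Both cover counting error only, since without molecular identifiers reads may be copies of 1 molecule, and neither allows for the table's selection by ratio. For log2 ratios, 0.0405 RPM (the 5th percentile of nonzero values) was added to both libraries. Each group has 1 library, taken from its genotype label. The interval code was tested on simulated data with more reads per region and no selection by ratio. Coverage of the intervals in the table itself was not tested. The 8 genes and the lists were chosen with earlier results of these data known. All listed regions of the 8 genes and of the list genes are named; genes with the same pair of reads are named alphabetically, up to 2, where the nearest region holds at least 10 reads. Python 3.11.15, NumPy 2.4.6, pandas 2.3.3 and SciPy 1.17.1 were used.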

Additional observations from a re-analysis of the deposited data

How the results depend on the processing

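No paired analysis was possible because there is a single library of each genotype, and no replicate could be left out. The median log2 ratio of 1.57 over the 8 genes became 1.95 with a pseudocount 10 times smaller, 0.89 with one 5 times larger, 1.80 in the 7 genes with a mean RPM at or above the table's median, and 1.35 without Nom1 and likewise without Nop14, the latter tried after seeing the data. With both libraries scaled to the same sum over the table, which centres a table of ratios above 2 by construction, it was 0.17 (-0.13 over all regions), the joint ratio was 1.12 and 0 of the 10 regions were at least 2-fold higher. That count of 8 became 10 with the smaller pseudocount, 4 with the larger and 4 at a fold of 3, where 24.7% of all regions passed. It was 7 in the 8 regions that pass the filter on the mean. Shares over the table for the other settings are not given here. Every listed ratio is above 2, so a smaller pseudocount lets more regions pass by selection, and the 10 is no result about these genes. With 99% intervals, 2 regions in place of 4 had a lower limit above 1, and the share over the table at 99% is not given here. The joint ratio of 3.85 was 4.09 (2.46 to 7.13) without Nom1 and 3.51 (2.22 to 5.76) without Nop14. All 20 recomputed log2 ratios with other pseudocounts lay within the counting intervals of their regions. Intervals this wide made that likely in advance, so it is no check of robustness. Depth limits single values: the libraries together hold under 10 reads in 4 of the 10 regions.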

Other observations

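Some regions of other genes held the same pair of reads as a region of the 8 genes, which shows how common each pair is in a table of few reads. No other region had the 6 and 27 reads of Nom1 at its start site, and 1 other, of Tasp1, had the 6 and 33 reads of Nop14. The pair of Nol6 (2 and 10) recurred in 7 other regions, Hdac2 and Lmbrd1 among them, and that of Ltv1 (1 and 10) in 10, 1700008J07Rik and Acot8 among them. The pair of Bms1 (3 and 7) recurred in 52 others, among them 1700102H20Rik and Aars. The start-site region of Heatr1 (1 and 4 reads) shared its pair with 150 others and its inner region (2 and 5) with 110.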
